A study of Mus musculus with 11 samples.

Results

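The ligands and receptors of the tumour necrosis factor (TNF) superfamilies were followed in BV2 cells, an immortalised mouse microglial line labelled as C57BL/6, after exposure to an amino-terminal fragment of apolipoprotein E (apoE). Members were chosen with earlier results of these data known. The rule looked at symbols alone and took every gene named Tnfsf or Tnfrsf followed by a number. It also took Tnf, Lta, Ltb, Ltbr, Cd40, Cd40lg, Cd70, Cd27, Fas, Fasl and Ngfr. Of the 36529 genes in the count tables, 43 fitted this rule, comprising 17 ligands, 25 receptors and 1 antisense RNA (Tnfsf13os) that encodes no ligand. In the first experiment, 3 samples received nApoE4, residues 1 to 151 of apoE4, at 25 µg/ml for 5 h, beside 3 untreated samples (ControlA). In the second, 2 samples received nApoE3, the same stretch of apoE3, at the same dose and time, beside 3 untreated samples of their own (ControlB). The fragments carry a His tag and differ by a cysteine-to-arginine change at a single residue. The treatment tag calls the controls untreated and the treatment protocol names a PBS vehicle, while the study's methods speak of conditioned media, so which of these the controls received was not settled here. Each fragment was used in its own experiment, so fragment and experiment cannot be told apart in any level or response set across them. Nothing in the labels says that samples of a group were separate cultures, so p-values measure only the spread between these samples.

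TNF-family ligands are mostly membrane proteins that act as trimers, and several, TNF among them, are also cut free by proteases. Their receptors fall into those with a cytoplasmic death domain, which can start caspase activation, and those that recruit TRAF adaptors and switch on the canonical or noncanonical NF-kB pathways, while a few act as decoys. In microglia and macrophages the family is best known for TNF itself, its receptors TNFR1 and TNFR2, and CD40, a receptor through which T cells activate antigen-presenting cells.

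A count was present in at least 1 sample for 40 of the 43 genes, and in every sample for 29, while 13 never exceeded 10 counts in any sample. Reads assigned to genes numbered 39732710 to 44162511 per sample in the nApoE4 experiment and 55809688 to 69768666 in the nApoE3 experiment. A total of 3 reads, the floor that a count of 0 allows, therefore stood for 0.0679 to 0.0755 CPM (reads per 1000000 reads on genes) in the former and 0.0430 to 0.0538 CPM in the latter, and this covers counting error only. Of 14 microglia and macrophage markers, 11 reached 1 CPM in some sample, with Csf1r at 26848 counts or more in every sample, whereas P2ry12 was listed at 0 throughout. Lymphocyte markers were scarce: the 7 T cell markers summed to between 0.906 and 3.95 CPM per sample, mostly Lck, with Cd8a and Trac at 0, and the 5 B cell markers summed to between 0.502 and 1.79 CPM, with Ms4a1 at 0. In a bulk sample, fewer cells expressing a gene and less RNA per cell cannot be told apart.

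With nApoE4, 27 members were abundant enough to test and 22 changed, 11 higher and 11 lower (edgeR quasi-likelihood test, Benjamini-Hochberg adjusted p under 0.05 over all tested genes). The background was high, since 57.2% of the 14240 genes tested passed the same threshold. More than 2-fold, 10 members were higher and 5 lower, against 10.2% and 7.46% of all tested genes. With nApoE3, 28 members were tested and 21 changed, 14 higher and 7 lower, against a background of 67.7% of 14817 genes. More than 2-fold, 12 were higher and 3 lower, against 9.60% and 6.57% of all tested genes. Over the tested members the median log2 fold change was 0.01 with nApoE4 and 0.22 with nApoE3, so gains and losses were both present and the family did not move as a block. Levels below are CPM scaled by edgeR's TMM factors over all 11 samples.

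**Figure D1:**
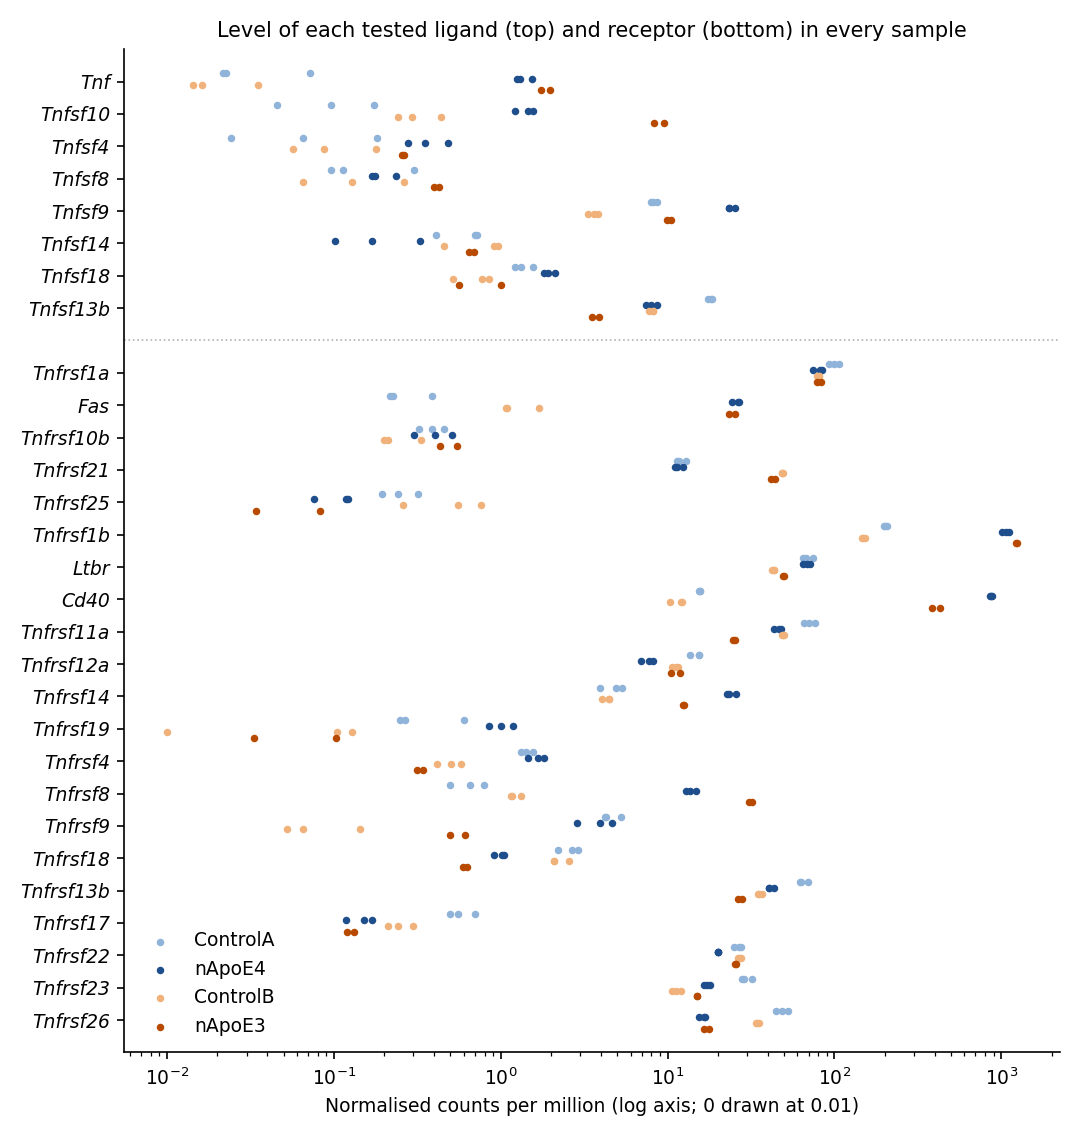
Normalised CPM (log axis) of each tested TNF-family ligand (above the dotted line) and receptor (below it), with 1 point per sample and a colour per group. Tnfrsf1b and Cd40 lie furthest to the right in treated samples, and Tnfrsf9, Tnfrsf21 and Fas stand at different levels in ControlA and ControlB.

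Among the ligands, Tnf itself was counted at 3, 1 and 1 reads in ControlA, 53, 64 and 52 in nApoE4, 1, 1 and 2 in ControlB, and 106 and 116 in nApoE3. Every treated sample stood above every control, although the counts were small. The ratio of summed counts, scaled for depth, was 36.1 (95% counting interval 15.2 to 113) for nApoE4 and 88.1 (33.9 to 326) for nApoE3, and both changes passed the edgeR test (adjusted p = 2.16e-06 and 3.87e-09). Leaving out ControlA replicate 1, which held 3 of the 5 control reads, moved the fitted log2 fold change with nApoE4 from 5.09 to 5.79.

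The level of Tnf could not be read from these tables. Tnf (chr17:35199367-35202007, minus strand, GRCm38.p6) lies between Ltb and Lta in the major histocompatibility region, and few reads were assigned to any gene around it. Of 25 coding genes within 150 kb, 3 reached 5 CPM in any sample (12%), against 46.9% of 20443 coding genes in the table. Genes there that nearly every cell uses were also almost empty: the RNA helicase gene Ddx39b had 9 to 33 reads per sample and the casein kinase gene Csnk2b 5 to 22. Over the 1.69 Mb from Rps28 to Tcf19, 6 of 103 coding genes reached 5 CPM, against 23 of 41 in the same length before it and 17 of 64 in the same length after it, and even Rps18, a ribosomal protein gene, had 47 to 97 reads. This window and the 5 CPM limit were chosen after the values were seen. None of the 1639 distinct 75-base words in annotated Tnf transcripts occurred in an annotated transcript of another gene. Counts in this stretch were also uneven between samples of a group: Bag6 had 45 reads in 1 nApoE3 sample and 511 in the other, Lst1 had 7, 2 and 246 in ControlB, and Psmb8 had 282, 6 and 4 in ControlA. The cause of the low and uneven counts, and its part in the Tnf ratios above, was not tested, so these ratios describe the reads assigned to Tnf and say nothing of how Tnf ranks against other ligands. The lymphotoxins from the same stretch, Lta and Ltb, had 4 and 1 reads in all, every one in nApoE3 samples, which is at or near the floor, so no fold is given.

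**Figure D2:**
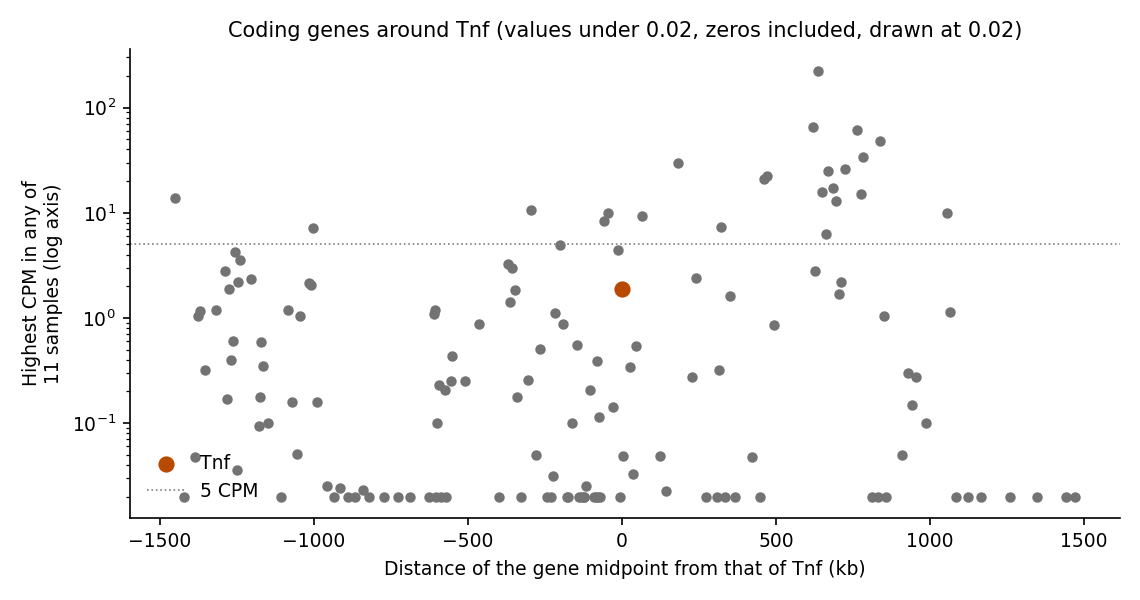
Highest CPM reached in any of the 11 samples (log axis) by each coding gene around Tnf, against the distance of its midpoint from that of Tnf in kb; values under 0.02, zeros included, are drawn at 0.02. Tnf (orange) sits among genes of which most stay under the dotted line at 5 CPM.

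The death ligand gene Tnfsf10, which encodes TRAIL, rose with both fragments. Its levels were 0.0965, 0.0455 and 0.173 CPM in ControlA and 1.56, 1.45 and 1.21 CPM in nApoE4. In the second experiment they were 0.243, 0.292 and 0.436 CPM in ControlB and 9.55 and 8.32 CPM in nApoE3. Neither pair of groups overlapped. The log2 fold change was 3.71 ± 0.35 (SE) with nApoE4 (adjusted p = 1.30e-05) and 4.85 ± 0.17 with nApoE3 (adjusted p = 1.23e-10). The other death ligand gene, Fasl, never exceeded 2 reads.

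Of the costimulatory ligands, Tnfsf9, which encodes 4-1BBL, was, with Tnf, the lymphotoxins, Tnfsf12 and Tnfsf13 left aside, the most highly expressed ligand of the family per kilobase in both treated groups, at 18.6 CPM per kb of exon in nApoE4 and 7.88 in nApoE3. It stood at 8.22, 8.68 and 7.99 CPM in ControlA and 23.3, 25.3 and 23.3 CPM in nApoE4. ControlB samples held 3.60, 3.33 and 3.82 CPM and nApoE3 samples 10.5 and 9.86 CPM. The starting levels differed between the experiments, yet the rise was 2.93-fold in each (log2 1.55 ± 0.07, adjusted p = 1.14e-07 with nApoE4, and 1.55 ± 0.09, adjusted p = 8.18e-09 with nApoE3). About 9.70% of the 75-base words of Tnfsf9 transcripts also occur in the overlapping gene Gm11110, so part of its reads may have been set aside.

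The remaining costimulatory ligands were rare. Tnfsf4 (OX40L) rose from 1 to 8 reads per sample in ControlA to 11 to 20 in nApoE4 (log2 2.02, adjusted p = 0.00858), and without ControlA replicate 2 this became 2.97. In the other experiment Tnfsf4 had 4 to 11 reads in ControlB and 15 and 16 in nApoE3 (log2 1.32, adjusted p = 0.0278), a call that was lost without ControlB replicate 1 or 3 or without either nApoE3 sample (log2 0.98 to 1.35, adjusted p from 0.0583 to 0.125). Tnfsf8 (CD30L) rose with nApoE3 from 4 to 15 reads to 24 and 25 (log2 1.5, adjusted p = 0.0103; 2.1 without ControlB replicate 3, and adjusted p = 0.0598 without nApoE3 replicate 2), and was too rare to test with nApoE4. Tnfsf14 (LIGHT) fell with nApoE4 from 19 to 31 reads to 4 to 14 (log2 -1.56, adjusted p = 0.00896) and stood at -0.16 with nApoE3 (adjusted p = 0.659). Tnfsf18 (GITRL) was called higher with nApoE4 at log2 0.53 (adjusted p = 0.0229), but not without ControlA replicate 1 or 3 or nApoE4 replicate 2 or 3, where the log2 fold change was 0.45 to 0.54 (adjusted p from 0.0508 to 0.0786). Cd70 had no read in any control and 1, 5 and 3 reads in nApoE4, and Cd40lg and Tnfsf15 never exceeded 1 read.

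Tnfsf13b, which encodes the B cell survival factor BAFF, was the ligand that fell in both experiments. It stood at 18.5, 17.5 and 18.3 CPM in ControlA and 7.98, 8.59 and 7.43 CPM in nApoE4. The corresponding values were 8.13, 8.19 and 7.77 CPM in ControlB and 3.86 and 3.53 CPM in nApoE3. The fall was 2.23-fold with nApoE4 (log2 -1.16 ± 0.08, adjusted p = 1.66e-06) and 2.1-fold with nApoE3 (log2 -1.07 ± 0.08, adjusted p = 1.76e-07), and ControlB started near where nApoE4 ended. Tnfsf11 (RANKL) had 3 reads in all. Tnfsf12 (TWEAK) and Tnfsf13 (APRIL) were listed at 0 in all samples; both lie under the read-through gene Tnfsfm13, which shares 45.8% and 55.7% of their 75-base words, so their 0 is no measure of expression.

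Several receptors rose many-fold. Cd40 (chr2:165055614-165071654, plus strand) was at 15.6, 15.6 and 15.3 CPM in ControlA and 856.7, 865.7 and 882.0 CPM in nApoE4. In the second experiment it was at 10.4, 12.1 and 12.2 CPM in ControlB and 426.9 and 385.1 CPM in nApoE3. Treated and control samples were far apart in both experiments. The rise was 56.9-fold with nApoE4 (95% interval 50.8 to 63.7, adjusted p = 5.21e-11) and 36.5-fold with nApoE3 (log2 5.19 ± 0.06, adjusted p = 5.55e-15). Per kilobase of exon, Cd40 went from 4.55 to 255 CPM with nApoE4, close to the most abundant receptor of the family.

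That receptor was Tnfrsf1b, which encodes TNFR2, the TNF receptor without a death domain. Its level was 201.4, 207.1 and 198.4 CPM in ControlA and 1068, 1109 and 1007 CPM in nApoE4. ControlB samples were at 152.1, 146.5 and 148.6 CPM and nApoE3 samples at 1245 and 1227 CPM. The gene was already abundant in controls and rose 5.33-fold with nApoE4 (log2 2.41 ± 0.07, adjusted p = 3.34e-09) and 8.56-fold with nApoE3 (log2 3.10 ± 0.02, adjusted p = 2.22e-16). The death-domain receptor for the same ligand, Tnfrsf1a (TNFR1), was at 98.9, 106.9 and 93.1 CPM in ControlA, 84.2, 82.3 and 74.7 CPM in nApoE4, 80.6, 78.7 and 81.0 CPM in ControlB and 78.9 and 83.3 CPM in nApoE3. It thus fell by 0.29 on the log2 scale with nApoE4 (adjusted p = 0.00560) and was at 0.06 with nApoE3 (adjusted p = 0.113; 0.10 and 0.0359 without nApoE3 replicate 1). Per kilobase, Tnfrsf1b and Tnfrsf1a stood at 53.0 and 38.4 CPM in ControlA and at 278 and 31.0 CPM in nApoE4, and at 39.0 and 30.9 CPM in ControlB and 324 and 31.3 CPM in nApoE3.

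Fas (chr19:34290647-34327775, plus strand), the death-domain receptor for Fas ligand, was almost silent in untreated cells. It was at 0.386, 0.227 and 0.216 CPM in ControlA and 26.6, 24.3 and 26.9 CPM in nApoE4. In the nApoE3 experiment it was at 1.09, 1.07 and 1.69 CPM in ControlB and 25.4 and 23.3 CPM in nApoE3. The 2 treated groups overlapped while the 2 control groups did not. Fas rose 95-fold with nApoE4 (95% interval 75.1 to 120, adjusted p = 1.15e-09) and 19.8-fold with nApoE3 (log2 4.31 ± 0.12, adjusted p = 9.22e-12).

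Tnfrsf8, which encodes CD30, and Tnfrsf14, which encodes HVEM, rose in both experiments as well. Tnfrsf8 went from 0.651, 0.796 and 0.498 CPM in ControlA to 12.9, 13.6 and 14.8 CPM in nApoE4, and from 1.33, 1.15 and 1.17 CPM in ControlB to 30.9 and 31.9 CPM in nApoE3. The folds were 21.5 (adjusted p = 1.08e-08) and 26.5 (adjusted p = 2.52e-14), with no overlap between treated and control samples. Tnfrsf14 went from 4.90, 3.93 and 5.30 CPM in ControlA to 22.7, 25.6 and 23.3 CPM in nApoE4, and from 4.44, 4.46 and 4.07 CPM in ControlB to 12.5 CPM in both nApoE3 samples. Its rise was 5.14-fold with nApoE4 (adjusted p = 1.21e-07) and 2.98-fold with nApoE3 (adjusted p = 7.76e-10). Tnfrsf8 and Tnfrsf1b are neighbours on chromosome 4, 20.3 kb apart and on the same strand.

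The 5 members with the largest rise for nApoE4 among those called in both experiments and reaching 10 CPM were Fas, Cd40, Tnfrsf8, Tnfrsf1b and Tnfrsf14. The 250 bases before the start used in the RefSeq promoter table (GRCm38.p6, 5′ to 3′ on the strand of the gene) are shown for 3 of them because they are the stretches next to the genes that moved most; for Tnfrsf14, 125 of the 250 bases lie in annotated exons of the gene and they are not shown. Capitals mark matches on either strand to the kappaB consensus of NF-kB, to the core of the interferon-stimulated response element (a pair of GAAA words 2 bases apart), to TTCNNNGAA (the gamma-activated site bound by STAT factors) or to TGANTCA (the site bound by AP-1). The windows are chr19:34290409-34290658 on the plus strand for Fas, and chr4:145315165-145315414 and chr4:145246871-145247120 on the minus strand for Tnfrsf8 and Tnfrsf1b; the last 12 bases of the Fas window lie inside the gene span given above.
Fas: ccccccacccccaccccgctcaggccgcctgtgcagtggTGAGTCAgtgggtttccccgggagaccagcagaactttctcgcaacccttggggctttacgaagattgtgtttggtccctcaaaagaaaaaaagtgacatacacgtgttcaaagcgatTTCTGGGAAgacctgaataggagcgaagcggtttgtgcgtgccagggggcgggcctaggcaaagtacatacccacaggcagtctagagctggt
Tnfrsf8: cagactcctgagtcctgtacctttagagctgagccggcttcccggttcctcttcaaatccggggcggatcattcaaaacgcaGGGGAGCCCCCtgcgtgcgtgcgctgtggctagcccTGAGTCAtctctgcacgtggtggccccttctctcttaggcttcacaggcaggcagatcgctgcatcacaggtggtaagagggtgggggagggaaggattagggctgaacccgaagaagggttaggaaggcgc
Tnfrsf1b: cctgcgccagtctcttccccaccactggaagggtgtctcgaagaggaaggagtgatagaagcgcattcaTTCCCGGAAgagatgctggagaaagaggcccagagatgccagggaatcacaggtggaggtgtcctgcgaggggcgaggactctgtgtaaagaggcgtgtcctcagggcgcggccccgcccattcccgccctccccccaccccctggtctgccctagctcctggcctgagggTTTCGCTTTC

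In the Fas window the capitals are 1 AP-1 match and 1 gamma-activated site, in that of Tnfrsf8 2 overlapping kappaB matches and 1 AP-1 match, and in that of Tnfrsf1b 1 gamma-activated site and 1 interferon element read on the opposite strand. Among 32851 RefSeq windows of the same length, 7.25% held a kappaB match, 2.98% the interferon element, 7.02% the gamma-activated site and 6.75% the AP-1 site. Of the 32 members with such a window, 4 held a kappaB match (Ltb, Tnfrsf25, Tnfrsf8 and Tnfrsf9), 4 the interferon element, 8 the gamma-activated site and 6 the AP-1 site. A member was counted if any of its windows held the match, so these counts are not on the same footing as the shares per window. A match describes these letters and shows no binding.

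Ltbr, the lymphotoxin beta receptor, was among the most abundant receptors and moved little. It was at 67.5, 74.1 and 64.8 CPM in ControlA, 68.5, 71.8 and 65.1 CPM in nApoE4, 42.1, 43.4 and 43.1 CPM in ControlB and 50.0 and 49 CPM in nApoE3. The groups overlapped with nApoE4 (log2 0.01, 95% interval -0.13 to 0.16, adjusted p = 0.867) and were separate with nApoE3 (log2 0.25 ± 0.03, adjusted p = 3.01e-05). Tnfrsf19, which encodes TROY, rose with nApoE4 from 0.265, 0.250 and 0.606 CPM to 0.850, 1.19 and 1.01 CPM (log2 1.44 ± 0.34, adjusted p = 0.00545). It was at 0.129, 0 and 0.105 CPM in ControlB and 0.0331 and 0.102 CPM in nApoE3, too low to test there.

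Several receptors fell with both fragments. Tnfrsf11a, which encodes RANK, went from 70.6, 65.7 and 76.0 CPM in ControlA to 46.8, 47.6 and 43.2 CPM in nApoE4 and from 48.9, 48.4 and 49.5 CPM in ControlB to 24.6 and 25.2 CPM in nApoE3. Its fall was 1.52-fold (adjusted p = 6.71e-05) and 1.91-fold (adjusted p = 3.68e-10). Tnfrsf13b, which encodes TACI, a BAFF receptor, went from 62.7, 69.7 and 62.1 CPM to 43.5, 40.8 and 40.7 CPM with nApoE4 and from 36.9, 35.3 and 34.7 CPM to 27.8 and 26.4 CPM with nApoE3. That was 1.53-fold (adjusted p = 2.55e-05) and 1.27-fold lower (adjusted p = 6.28e-06), alongside the fall of its ligand gene Tnfsf13b given above. Tnfrsf18, which encodes GITR, went from 2.89, 2.20 and 2.66 CPM to 1.02, 1.04 and 0.909 CPM with nApoE4 and from 2.07, 2.09 and 2.57 CPM to 0.596 and 0.631 CPM with nApoE3. No treated sample of these 3 genes reached the level of a control of its experiment, and Tnfrsf18 was 2.57-fold (adjusted p = 0.000106) and 3.53-fold lower (adjusted p = 3.46e-06). About 14.9% of the 75-base words of Tnfrsf18 transcripts also occur in the overlapping gene Gm16008, so part of its reads may have been set aside.

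Tnfrsf22, Tnfrsf23 and Tnfrsf26 form a cluster on mouse chromosome 7; the products of Tnfrsf22 and Tnfrsf23 are known as TRAIL decoy receptors. Their transcripts share 20.8%, 13.7% and 1.11% of their 75-base words with transcripts of other genes. Tnfrsf22 and Tnfrsf23 have 527 such words in common, so reads may have been set aside or split between these genes, whereas Tnfrsf26 shares none with either. Tnfrsf26 fell from 44.7, 52.8 and 48.4 CPM to 15.3, 16.8 and 16.4 CPM with nApoE4 and from 34.1, 33.8 and 35.1 CPM to 16.5 and 17.7 CPM with nApoE3. The treated groups ended at similar levels, after a fall of 2.96-fold (adjusted p = 1.45e-07) and 1.95-fold (adjusted p = 2.27e-09). Tnfrsf23 moved in opposite directions, from 28.0, 28.7 and 31.9 CPM to 16.6, 18 and 17.2 CPM with nApoE4 (log2 -0.75 ± 0.08, adjusted p = 2.25e-05) and from 12, 11.2 and 10.7 CPM to 15.0 CPM in both nApoE3 samples (log2 0.45 ± 0.05, adjusted p = 7.29e-06). Tnfrsf22 fell with nApoE4 from 27.4, 24.8 and 26.9 CPM to 20.0, 19.9 and 20.0 CPM (log2 -0.38, adjusted p = 0.000697). With nApoE3 it stood at 25.3 and 25.9 CPM against 26.6, 27.5 and 27.3 CPM (log2 -0.04, adjusted p = 0.441).

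Tnfrsf12a, which encodes the TWEAK receptor Fn14, fell with nApoE4 from 15.3, 15.5 and 13.7 CPM to 8.15, 6.95 and 7.70 CPM (1.92-fold, adjusted p = 1.42e-05). It was at 11.3, 10.6 and 11.6 CPM in ControlB and 11.9 and 10.5 CPM in nApoE3, where the groups overlapped (log2 0.06, 95% interval -0.09 to 0.20, adjusted p = 0.493). Tnfrsf9, which encodes 4-1BB, the receptor for the product of Tnfsf9, changed with nApoE3 and not past the threshold with nApoE4. It was at 4.27, 5.25 and 4.20 CPM in ControlA and 4.63, 2.86 and 3.94 CPM in nApoE4, which overlapped (log2 -0.24, adjusted p = 0.269). ControlB samples were at 0.143, 0.0649 and 0.0524 CPM and nApoE3 samples at 0.496 and 0.614 CPM, a 6.29-fold rise (adjusted p = 7.80e-05) that still left nApoE3 below every sample of the other experiment. The ControlB values rest on 10, 4 and 3 reads, near the floor. Tnfrsf21, which encodes the death receptor DR6, was at 11.4, 11.7 and 12.9 CPM in ControlA and 11.1, 12.3 and 11.4 CPM in nApoE4 (log2 -0.03, adjusted p = 0.806). It was at 48.9, 48.8 and 48.8 CPM in ControlB and 41.8 and 43.8 CPM in nApoE3 (log2 -0.14, adjusted p = 0.00270).

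The other tested receptors stayed under 2 CPM. Tnfrsf17 (BCMA) fell with nApoE4 from 23 to 31 reads to 5 to 7 (log2 -1.96, adjusted p = 0.000436) and was at -0.93 with nApoE3 (adjusted p = 0.0625). Tnfrsf25 (DR3) fell with nApoE3 from 16 to 53 reads to 5 and 2 (log2 -3.08, adjusted p = 0.000547). Without nApoE3 replicate 1 its log2 fold change was -3.83. In the other experiment it was too rare to test, with 10, 14 and 9 reads in ControlA and 5, 5 and 3 in nApoE4. Tnfrsf10b, a TRAIL receptor, was called higher with nApoE3 (log2 1.03, adjusted p = 0.0142), not without nApoE3 replicate 2 (log2 0.85, adjusted p = 0.122), and was at 0.08 with nApoE4 (adjusted p = 0.829). Tnfrsf4 (OX40) passed in neither experiment (adjusted p = 0.296 and 0.111). Tnfrsf13c, Tnfrsf11b and Ngfr had at most 9, 1 and 1 reads in a sample, and Cd27 was listed at 0 throughout.

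**Figure D3:**
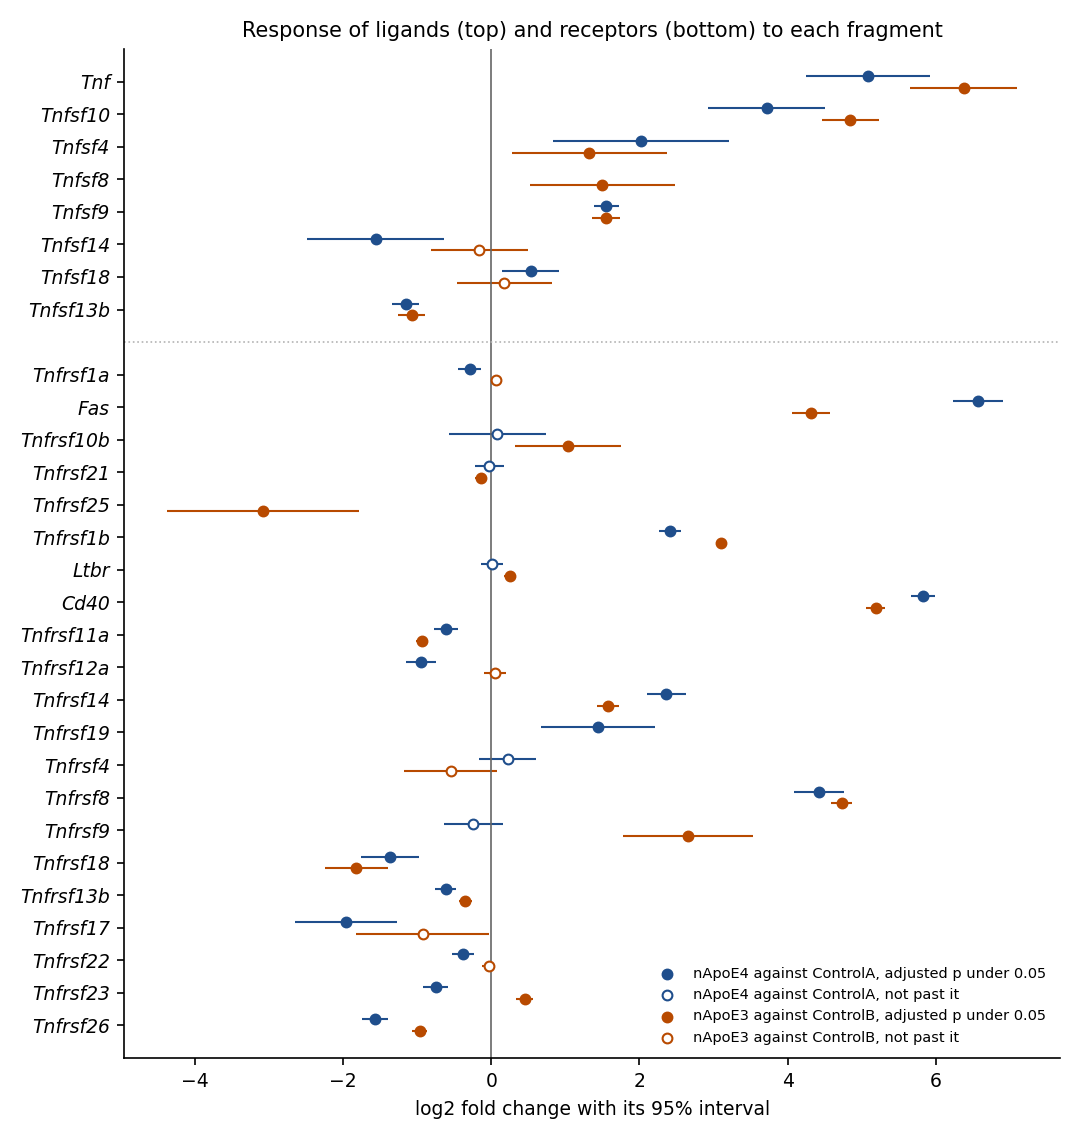
Log2 fold change, with its 95% interval, of each tested ligand (above the dotted line) and receptor (below it) for nApoE4 (blue) and nApoE3 (orange), each against its own controls; filled points have an adjusted p under 0.05. Fas, Cd40, Tnfrsf8, Tnfrsf1b and Tnfrsf14 rose with both fragments, and Tnfrsf23 lies on opposite sides of 0.

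Whether the 2 responses differed was tested as the difference between them, each taken against its own controls. Each fragment had its own experiment, so this test cannot tell fragment from experiment either. Of 29 members tested, 13 differed, 4 with a higher response to nApoE4 and 9 with a lower one, against a background of 28.3% of 15287 genes. All 13 were receptors. Of them, 1 response was over 2-fold higher with nApoE4 and 3 over 2-fold lower, against 5.93% of all genes tested (2.58% higher and 3.35% lower). None of the 8 ligands tested passed the edgeR threshold, and 2 of them had an unadjusted p under 0.05; DESeq2 called none of them either. The interval was narrow for Tnfsf9 (-0.23 to 0.21 on the log2 scale) and Tnfsf13b (-0.32 to 0.14). It was wide for Tnf (-2.81 to 0.30), Tnfsf10 (-2.22 to -0.05), Tnfsf14 (-2.65 to -0.18), Tnfsf8 (-2.91 to 0.27), Tnfsf4 (-1.02 to 2.41) and Tnfsf18 (-0.43 to 1.11), so at these depths a difference in those ligands was not resolved. Tnfsf10 passed without ControlA replicate 2 (log2 -1.49, adjusted p = 0.0275) and stood at -0.55 without ControlA replicate 3, and Tnfsf14 passed without ControlA replicate 3 (-1.63, adjusted p = 0.0435) or nApoE4 replicate 1 (-1.97, adjusted p = 0.0328). Single controls also moved the difference for Tnf (from -1.26 to -0.55 without ControlA replicate 1), for Tnfsf8 (from -1.32 to -0.61 without ControlA replicate 3 and -1.93 without ControlB replicate 3) and for Tnfsf4 (from 0.70 to 1.66 without ControlA replicate 2), none of which passed.

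Cd40 responded more to nApoE4 by 0.63 ± 0.10 on the log2 scale (1.55-fold, adjusted p = 0.000341) and Tnfrsf14 by 0.78 ± 0.14 (adjusted p = 0.00102), and their treated levels were also higher with nApoE4. Tnfrsf1b responded less to nApoE4, by -0.70 ± 0.07 (adjusted p = 7.28e-06), although it was the most abundant receptor in both treated groups per kilobase. The difference for Tnfrsf8, at -0.31, did not pass (95% interval -0.71 to 0.09, adjusted p = 0.238). The largest gap was that of Tnfrsf9 (-2.90 ± 0.43, adjusted p = 0.000262), followed among the negative ones by Tnfrsf23 (-1.22 ± 0.10, adjusted p = 1.51e-06) and Tnfrsf12a (-1.01 ± 0.12, adjusted p = 3.85e-05). That of Tnfrsf9 rests on ControlB samples with 10, 4 and 3 reads, near the floor. Smaller gaps were seen for Tnfrsf26 (-0.61), Tnfrsf1a (-0.36) and Tnfrsf22 (-0.36). Those of Tnfrsf11a (0.31, adjusted p = 0.0177), Tnfrsf13b (-0.28, adjusted p = 0.0197) and Ltbr (-0.25, adjusted p = 0.0357) hung on single samples: Tnfrsf11a was lost without nApoE3 replicate 1 or 2 (0.30 and 0.33), Tnfrsf13b without nApoE4 replicate 2 (-0.25) or nApoE3 replicate 1 (-0.24), and Ltbr without nApoE4 replicate 1 or 3, any ControlB sample or either nApoE3 sample (-0.22 to -0.27).

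**Figure D4:**
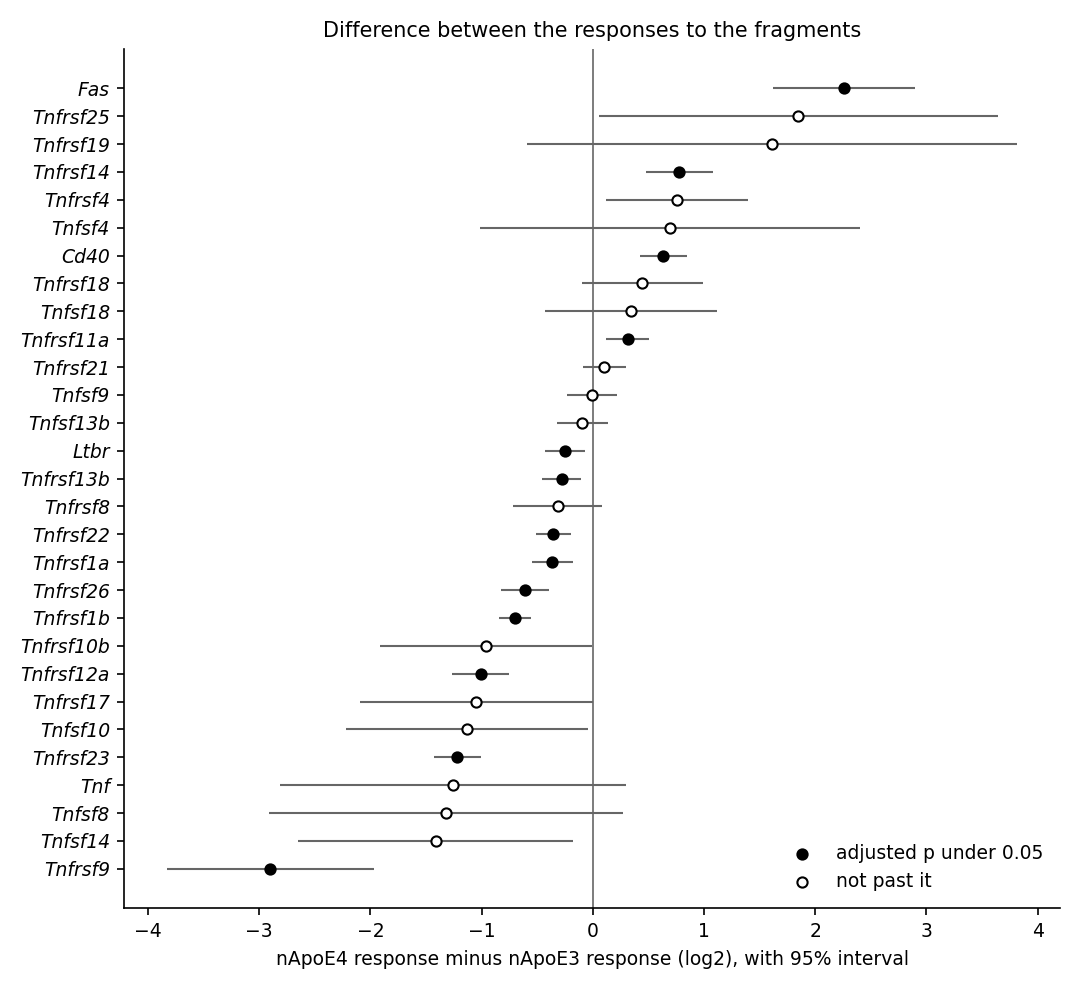
The response to nApoE4 minus the response to nApoE3 on the log2 scale, with its 95% interval, for each of the 29 members tested; filled points have an adjusted p under 0.05. Fas lies at 2.26 and Tnfrsf9 at -2.90, and every filled point is a receptor.

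The difference for Fas was 2.26 ± 0.29 (adjusted p = 9.75e-05), but the treated levels were alike, at 25.9 ± 1.41 CPM (SD, n = 3) with nApoE4 and 24.4 ± 1.48 CPM (SD, n = 2) with nApoE3. The control levels differed, with Fas 4.68-fold higher in ControlB than in ControlA (log2 2.23 ± 0.31, adjusted p = 0.000336). Levels or responses set across the experiments cannot tell fragment from experiment. Untreated cells of the 2 experiments differed in 20 of the 26 members tested, 4 higher and 16 lower in ControlB, against a background of 69.3% of 14249 genes (34.4% higher and 34.9% lower). Past 2-fold there were 3 higher and 7 lower members, against 17.9% of genes (5.4% higher and 12.5% lower). The comparisons share control samples, so the values stand side by side only. Tnfrsf9 was 49.4-fold lower in ControlB (adjusted p = 1.28e-06), Tnfrsf23 2.59-fold lower (adjusted p = 1.47e-06) and Tnfsf9 2.30-fold lower (adjusted p = 9.66e-06), while Tnfrsf21 was 4.10-fold higher (adjusted p = 2.14e-07). The fold for Tnfrsf9 rests on 10, 4 and 3 reads in ControlB. Tnfsf10 (log2 1.58, adjusted p = 0.0154) lost its call without ControlA replicate 1 (adjusted p = 0.0523). The part of culture, lane or library in these differences cannot be told apart.

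**Figure D5:**
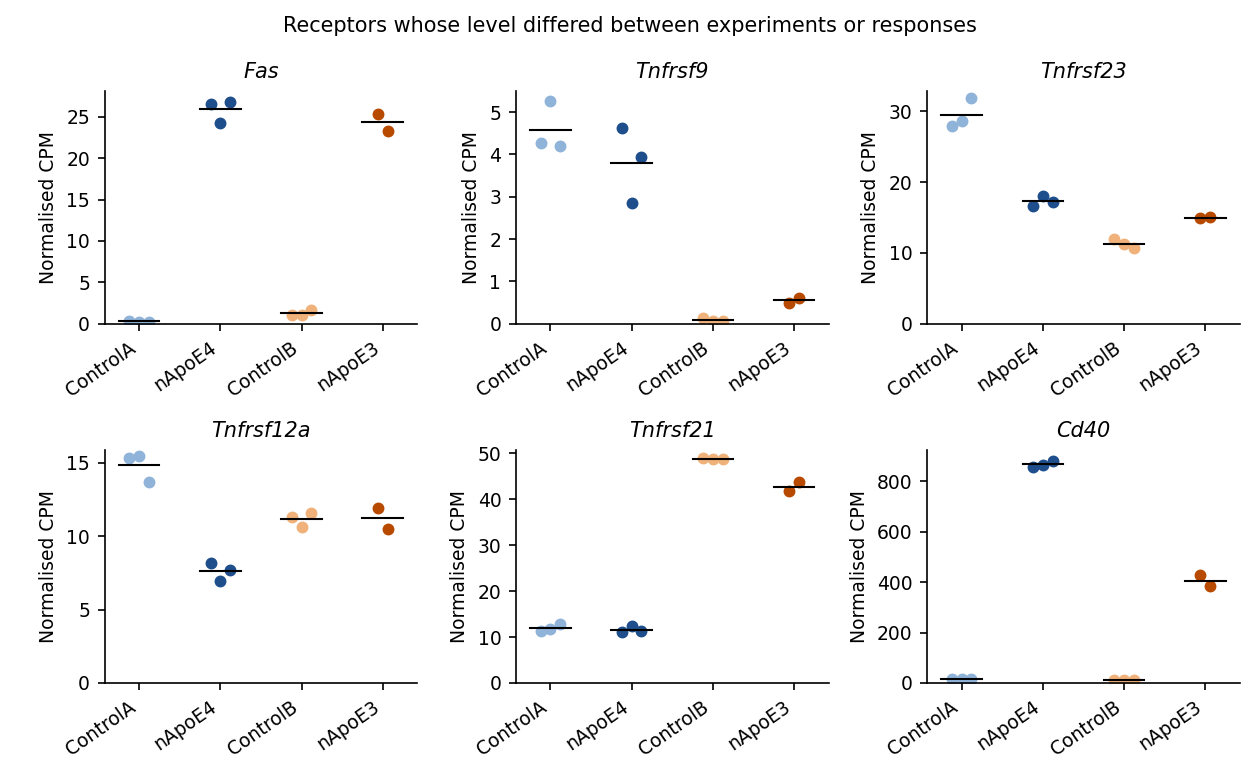
Normalised CPM of 6 receptors in every sample of the 4 groups (linear axes from 0); points are samples and bars are group means. Fas reached similar levels in both treated groups from different control levels, and Tnfrsf9 and Tnfrsf21 differed more between the experiments than with treatment.

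Beside the members, 47 other genes tied to the pathway were followed (adaptors, kinases, the death arm, ubiquitin enzymes and brakes, NF-kB genes, sheddases with their partners, and superfamily genes with other symbols), of which 43 were tested with each fragment. With nApoE4, 26 were higher and 7 lower, and with nApoE3, 26 were higher and 8 lower, beside 28.6% of all tested genes in each direction with nApoE4 and 33.1% and 34.6% with nApoE3. These genes were chosen with earlier results of these data known, so the counts test nothing about the pathway as a set. Among adaptors, Traf1, a TRAF that binds TNFR2, CD30 and 4-1BB, rose from 44 to 56 reads in ControlA to 8067 to 8598 in nApoE4 and from 65 to 79 in ControlB to 7074 and 7194 in nApoE3. This was the largest pathway change, at log2 7.55 ± 0.09 (adjusted p = 4.96e-11) and 6.74 ± 0.05 (adjusted p = 3.75e-16). Tank (log2 1.61 and 1.98) and Traf2 (1.17 and 0.76) rose with both fragments too. Of the 10 adaptor genes, 4 were higher and 2 lower with nApoE4, and 5 higher and 2 lower with nApoE3.

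The list of 10 genes for ubiquitin ligases, deubiquitinases and brakes holds both promoters and inhibitors of signalling. Of these, 8 were higher and 0 lower with nApoE4, and 7 were higher and 2 lower with nApoE3. Among all tested genes, 28.6% were higher and 28.6% lower with nApoE4, and 33.1% and 34.6% with nApoE3. The list was chosen with earlier results known, so these counts test nothing about it. Tnfaip3, which encodes the deubiquitinase A20, was at log2 3.71 (adjusted p = 4.23e-10) with nApoE4 and 4.07 (adjusted p = 2.23e-13) with nApoE3. Birc3 (cIAP2) was at 2.63 and 2.29 and Tnip1, which encodes an A20-binding protein, at 2.39 and 2.24, each past the threshold. In the death arm, 3 of 5 genes tested were higher and 2 lower with nApoE4, and 3 higher and 1 lower with nApoE3. There, Cflar, which encodes the caspase-8 inhibitor c-FLIP, rose at log2 3.30 and 3.14. Mlkl, which encodes the effector of necroptosis, rose less with nApoE4 (0.43) than with nApoE3 (1.14), with a difference of -0.72 (adjusted p = 6.55e-06).

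All 3 NF-kB genes followed rose with both fragments, beside 28.6% of all tested genes higher with nApoE4 and 33.1% with nApoE3. The response was greater with nApoE4 by 1.37 ± 0.10 for Relb (log2 3.30 and 1.92, adjusted p = 5.22e-07) and 0.71 for Nfkbia (3.41 and 2.70, adjusted p = 0.000413). That of Nfkb2, at 0.24 (2.60 and 2.36, adjusted p = 0.0497), was at the threshold and was lost without ControlA replicate 1 or 3, nApoE4 replicate 1 or 2, ControlB replicate 2 or 3 or either nApoE3 sample (0.17 to 0.25, adjusted p from 0.0616 to 0.168). Of 9 genes of the kinase modules, 6 were higher and 1 lower with each fragment. Among them, Map3k5, which encodes ASK1, rose with nApoE4 (1.69 ± 0.09) and stood at 0.04 with nApoE3 (adjusted p = 0.528). The difference was 1.64 (adjusted p = 7.26e-07). The gene of the TNF sheddase, Adam17, was higher with both (1.32 and 1.22), as was that of its partner iRhom2, Rhbdf2 (2.42 and 2.19). The other sheddase gene of the list, Adam10, was called lower with both. Its mean was 127 CPM in ControlA and 98.5 CPM in nApoE4, and 225 CPM in ControlB and 161 CPM in nApoE3. Relt, a receptor gene of the superfamily whose symbol the rule leaves out, fell with both (-1.32 and -0.63).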

How the data were processed

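Total RNA of the 11 samples was sequenced as single reads of 75 bases. The deposited count tables hold raw HTSeq counts per gene, with no normalization; per the labels, the authors used Trim Galore 0.5.0, FastQC 0.11.8, HISAT2 2.1.0 and HTSeq 0.11.0 with GRCm38.p6. Strand and overlap settings are not given in the sources used here. The 5 HTSeq tallies that name no gene were left out; reads on genes made up 76.0% to 77.7% of all reads tallied. edgeR 4.0.16 in R 4.3.3 (filterByExpr, TMM, quasi-likelihood F test) was fitted across all genes, with Benjamini-Hochberg adjustment over all genes tested and a threshold of 0.05. SE was the log2 fold change over the root of F. Treated samples were set against the controls of their own experiment, and the difference between the responses was fitted over all 11 samples. CPM per kb used GENCODE exon lengths; gene positions and windows came from RefSeq on GRCm38.p6, and Cd40 had no window. Alternatives were DESeq2 1.42.0, its size factors, other count filters, a replicate block, thinned counts, all samples in one fit and leaving out each sample. The fits were tested on simulated data. No samples of a group were identical or agreed within sampling noise. Members, gene lists and tests were chosen with earlier results of these data known. Sample values are given for members with an adjusted p under 0.05, a fold above 2 and a mean of 1 CPM in some group, or with 10 CPM in some group; for each pathway list, at most the 3 genes with the largest changes past the threshold are named.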

Additional observations from a re-analysis of the deposited data

Results flagged for a closer look

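Of 29 members tested, the response to nApoE4 differed from that to nApoE3 in 13, all receptors, by the edgeR test of the difference itself (adjusted p under 0.05). The background was 28.3% of 15287 genes, and most of the 8 ligands tested had wide intervals. On the log2 scale the response was greater with nApoE4 for Fas (2.26), Tnfrsf14 (0.78), Cd40 (0.63) and Tnfrsf11a (0.31). It was lower with nApoE4 for Tnfrsf9 (-2.90), Tnfrsf23 (-1.22), Tnfrsf12a (-1.01), Tnfrsf1b (-0.70), Tnfrsf26 (-0.61), Tnfrsf1a (-0.36), Tnfrsf22 (-0.36), Tnfrsf13b (-0.28) and Ltbr (-0.25). The calls for Tnfrsf11a, Tnfrsf13b and Ltbr hung on single samples, and Tnfrsf9 had 10, 4 and 3 reads in ControlB. Each fragment had its own experiment, so fragment and experiment cannot be told apart in these values.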

How the results depend on the processing

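No call of a member or pathway gene reversed under the alternatives run; their use on pathway genes was chosen after seeing the data. Replicate numbers did not pair the samples (correlations of deviations from -0.171 to -0.0077); with the replicate block, 21, 20 and 10 members were called for nApoE4, nApoE3 and their difference, and the calls over all genes for the difference moved from 4331 to 2307. Leaving out single samples gave 21 to 22 member calls with nApoE4, 18 to 21 with nApoE3, 10 to 14 for the difference and 19 to 21 between the controls; a lone nApoE3 sample was then assumed to vary like the other groups. The call was the same under every alternative for 26 of 27, 22 of 28, 22 of 29 and 22 of 26 members in these comparisons. Apart from single-sample changes given in the report, Tnfsf18 with nApoE4 was lost in the fit of all samples and under the block, Tnfrsf10b and Tnfsf4 with nApoE3 by DESeq2, Tnfrsf21 with nApoE3 in the fit of all samples, Ltbr and Tnfrsf13b in the difference when every gene with a count was tested, and Tnfsf4 with nApoE3 and Ltbr, Tnfrsf11a and Tnfrsf13b in the difference under the block; the cause was not tested. Calls gained were Tnfrsf17 with nApoE3 in the fit of all samples (adjusted p = 0.0422), Tnfrsf4 in the difference with 10 reads or more in every sample (0.0494) or thinned counts (0.0284), and, between the controls, Tnfrsf25 by DESeq2, its size factors, testing every gene with a count, the fit of all samples and thinned counts (0.0227 to 0.0497). Of single samples not named in the report, leaving out ControlB replicate 2 gained Tnfrsf25 in the difference (0.0318) and between the controls (0.00538), as did ControlA replicate 2 for the latter (0.0300), and leaving out ControlB replicate 3 gained Tnfrsf10b between the controls (0.0340). Between the controls, Tnfrsf19 was lower in ControlB (log2 -2.21, edgeR adjusted p = 0.0208), a call lost in 1 of 11 alternatives (0.0864). Of pathway genes, 36 of 43 with nApoE4, 35 of 43 with nApoE3 and 33 of 44 in the difference kept their call under every alternative; Nfkb2 in the difference was also lost with DESeq2 size factors (0.0650) and under the block (0.263). Values of genes under 10 reads per sample rest on few reads, and the cause of their low counts was not tested.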
